A study of Mus musculus with 10 samples.

Results

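The 44 genes described here encode the contractile apparatus of vascular smooth muscle, the actin cytoskeleton to which it is anchored, and 4 regulators of their transcription. They were chosen by name from a written list, with earlier results of these data known. Each name was looked up among the 35527 gene names on the array. All 44 were found, with 75 probes between them, and all 44 could be tested, as could 22520 names in all. In 24 of the genes expression is largely restricted to muscle, 16 are expressed in most cells, and the remaining 4 are Srf, Myocd, Mkl1 and Mkl2. The split between the first 2 classes follows general knowledge, and 10 genes, among them Myl9, Mylk, Tpm1 and Cald1, could be placed in either.

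RNA was profiled from the infrarenal aorta of male C57BL/6J mice aged 10 weeks. Mice of the PPE group received an infusion into the aorta, for 5 min at 100 mmHg, of type I porcine pancreatic elastase (PPE) at 1.5 U/mL in saline, a model of abdominal aortic aneurysm (AAA), and those of the sham group received saline alone. Ligation, aortotomy and pressurised infusion were shared by both groups, and tissue was taken on day 7. Each group had 5 arrays with 1 aorta each. No untreated aorta entered the comparison. Every value is a log2 ratio of aortic RNA (red dye) to a universal mouse reference RNA (green dye) on the same array, so 1 unit is a doubling, and levels of different genes are not compared. The difference between groups is PPE minus sham on this log2 scale, tested with limma across all 22520 names, and a gene was called higher or lower at a Benjamini-Hochberg adjusted p under 0.01.

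Smooth muscle cells shorten when calcium-calmodulin activates myosin light chain kinase, which phosphorylates the regulatory light chain, and they relax when myosin phosphatase removes that phosphate. Actin, tropomyosin, calponin and caldesmon form the thin filament, and dense bodies and dense plaques tie the filaments to each other and to the membrane. Many of these genes are controlled by serum response factor (SRF), which binds a DNA element called the CArG box and takes up coactivators, myocardin (Myocd) or the actin-regulated myocardin-related factors encoded by Mkl1 and Mkl2. Lowered expression of contractile genes is a well-known feature of the phenotypic switch of aortic smooth muscle in injured vessels.

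The CArG box, CC followed by any 6 of A or T and then GG, was searched for in 300 bases per annotated start (250 before and 50 after) in RefSeq's annotation of mouse build GRCm38.p6. It reads the same on both strands. Only exact matches inside this window were counted. A box with a G or C in its core, or one elsewhere in the gene, was missed. Absence here therefore does not mean that a gene lacks such a box, and the classes were not compared by a test. It was present for 488 of 27025 genes in that table, or 1.81%. Of the members with an entry, it was present for 2 of 20 muscle-restricted genes (Myl9 and Ldb3), 3 of 14 broadly expressed genes (Cnn2, Myl6 and Vcl) and 1 of 3 transcription factors (Srf itself, with 2 boxes). Actg2, Csrp2, Itpr1, Myh11, Myocd, Nexn and Tagln had no entry. The stretches that hold the boxes are shown for 5 genes, since the same element lies before genes with different results. They run 5′ to 3′ on the gene's strand and end before the annotated start, with the box in capitals.
Myl9: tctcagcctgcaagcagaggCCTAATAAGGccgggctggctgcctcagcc
Vcl: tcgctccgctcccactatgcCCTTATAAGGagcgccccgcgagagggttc
Myl6: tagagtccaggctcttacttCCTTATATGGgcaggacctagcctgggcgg
Cnn2: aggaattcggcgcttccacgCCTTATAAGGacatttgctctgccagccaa
Srf: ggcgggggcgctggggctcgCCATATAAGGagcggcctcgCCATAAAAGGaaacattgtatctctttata
They lie at chr2:156775283-156775332 (+) for Myl9, chr14:20929151-20929200 (+) for Vcl, chr10:128493030-128493079 (-) for Myl6, chr10:79988524-79988573 (+) for Cnn2 and chr17:46556195-46556264 (-) for Srf. Of these 5 genes, Myl9, Vcl, Myl6 and Srf were called lower in PPE (Srf by 1 of its 2 probes), and Cnn2 was not called. A match in letters is a description of the sequence and not a binding site.

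Across the 44 genes, 33 (75%) were called lower in PPE and 2 (4.55%), Tpm4 and Mkl1, were called higher. Of all names tested, 9.96% were lower and 13.9% were higher. The median difference was -1.55 over the members and 0.02 over all names. In 29 members all 5 PPE values lay below all 5 sham values, which was the case for 10.5% of all names, and in 2 members they all lay above, against 15% of all names. With each array centred on its median in place of loess, the median of all names moved to 0.41 and the calls over all names to 408 higher and 8 lower, from 3122 higher and 2244 lower. No member was called at that setting and 8 had an unadjusted p under 0.05, and 39 of the 44 lay below the median of all names, against 41 in the values used here. Under that setting the difference of Myh11, Ppp1r14a, Cnn3, Vim, Palld and Mkl2 turned to above 0. In bulk tissue, a smaller share of smooth muscle cells among all cells and less RNA of these genes per smooth muscle cell cannot be told apart.

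**Figure D1:**
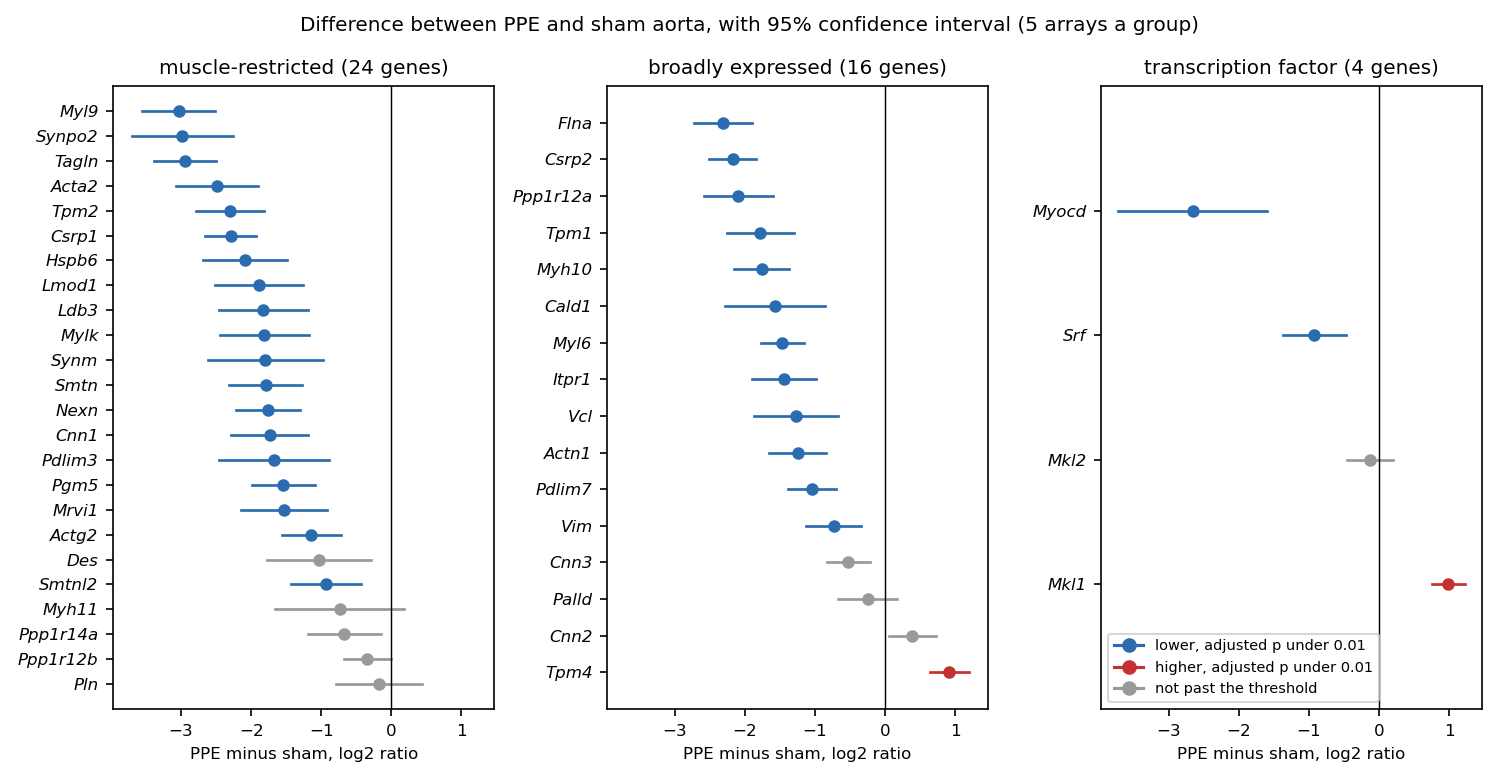
Difference between PPE and sham (log2 ratio, horizontal axis) for each of the 44 genes in 3 panels by class, with bars for the 95% confidence interval. The 19 called muscle-restricted genes, 12 of the broadly expressed genes, Myocd and Srf lie to the left of 0, and Tpm4 and Mkl1 lie to the right.

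Most muscle-restricted genes fell. Of 24, 19 (79.2%) were called lower and none higher, all 24 differences were below 0, and the median was -1.77. Of all 22520 names tested, 9.96% were called lower, 13.9% were called higher and 10728 names had a difference below 0. The mean of the 24 log2 ratios was 3.48 ± 0.36 (SD, n = 5) in sham and 1.80 ± 0.42 (SD, n = 5) in PPE, with sham arrays from 2.99 to 3.90 and PPE arrays from 1.56 to 2.53. The 2 ranges did not overlap. On the 2 slides that held both groups, the median difference was -1.81 (slide 1, 1 sham and 2 PPE arrays) and -1.74 (slide 2, 2 of each), and all 24 genes were below 0 on both. The same count by slide was not made over all names.

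The 5 muscle-restricted genes with the largest falls were Myl9, Synpo2, Tagln, Acta2 and Tpm2. Myl9, the regulatory light chain of smooth muscle myosin, read 5.74, 5.50, 5.02, 5.71 and 4.94 on sham arrays 1 to 5, the order used throughout. Its PPE values were 2.07, 3.16, 2.21, 2.15 and 2.15, so the groups lay well apart, with PPE 2 above the other PPE arrays. The difference was -3.03 ± 0.24 (SE), an 8.19-fold lower ratio (adjusted p = 3.3e-06, limma). Synpo2 encodes an actin-binding protein of dense bodies and Z-discs. Its sham values were 7.54, 7.03, 5.97, 6.26 and 6.76 and its PPE values 3.81, 4.72, 3.37, 3.40 and 3.36, a difference of -2.98 ± 0.33 (SE; adjusted p = 3.8e-05). No PPE array reached the lowest sham array. The other 2 Synpo2 probes, both dimmer, were at -1.80 (called) and -0.78 (adjusted p = 0.023), and with its probes averaged Synpo2 was at -1.85.

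Tagln encodes SM22-alpha, a calponin-related protein on actin filaments and a usual marker of smooth muscle. It read 5.40, 5.49, 4.94, 5.33 and 5.04 in sham and 2.04, 3.02, 2.31, 2.13 and 1.96 in PPE. The difference of -2.95 ± 0.20 (SE), or 7.72-fold, had the smallest adjusted p of all members (1.5e-06). Acta2 encodes the smooth muscle alpha-actin of the thin filament, and its probe lies at chr19:34316060-34316119 (mm9, minus strand). Its sham values were 4.41, 4.46, 3.90, 4.69 and 3.97 and its PPE values 1.44, 2.82, 1.65, 1.39 and 1.73. The difference was -2.48 ± 0.27 (SE), or 5.60-fold (adjusted p = 3.1e-05), and without PPE 2, the highest PPE array by a wide margin, it was -2.74. Tpm2, the beta-tropomyosin that lies along the actin filament, read 4.17, 3.75, 3.43, 3.99 and 3.27 in sham against 1.35, 2.11, 1.21, 1.38 and 1.07 in PPE. Its groups did not overlap either, with a difference of -2.30 ± 0.22 (SE; adjusted p = 1.5e-05).

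The other 14 muscle-restricted genes called lower fell by 0.93 to 2.29. Csrp1, a LIM protein on actin bundles, had a difference of -2.29, Hspb6, a small heat shock protein linked to relaxation, -2.09, and Lmod1, a nucleator of actin filaments, -1.89. With the deposited log ratios Lmod1 was at -1.15 and was not called (adjusted p = 0.039). Mylk, the kinase that starts contraction, had a difference of -1.81, and Cnn1, the calponin of smooth muscle, -1.73. Smtn (smoothelin, -1.79), Nexn (nexilin, -1.75), Pgm5 (aciculin, of adhesion plaques, -1.54), and the dense-body and Z-disc proteins Ldb3 (-1.82) and Pdlim3 (-1.67) lay in the same range. Mrvi1, which links cGMP signalling to the store of calcium, was at -1.53, the intermediate filament gene Synm at -1.80, and the smooth muscle gamma-actin Actg2 at -1.14. Synm was the only called gene of this class whose groups overlapped, PPE 2 at 3.14 lying above sham 3 at 2.86. Pdlim3 lost its call without sham 1, sham 4, PPE 3 or PPE 4 (adjusted p = 0.010 to 0.012). Smtnl2, at -0.93, lost its call without sham 1, sham 4, sham 5, PPE 1, PPE 3 or PPE 4 (adjusted p = 0.012 to 0.022), and with slide (0.025) or scan day (0.011) as a fixed block.

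The remaining 5 muscle-restricted genes did not pass the threshold, and Myh11, the heavy chain of smooth muscle myosin and a defining marker of the cell, was among them. Its probe lies at chr16:14202190-14202249 (mm9, minus strand). It read 5.32, 4.27, 3.88, 4.92 and 4.54 in sham and 4.19, 5.31, 3.03, 3.08 and 3.63 in PPE. PPE 2 was level with the highest sham array, while PPE 3, PPE 4 and PPE 5 lay below all sham arrays. The difference was -0.74 with a 95% confidence interval from -1.66 to 0.18 (adjusted p = 0.206), and without PPE 2 it was -1.10 (adjusted p = 0.021).

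Ppp1r14a (CPI-17) inhibits myosin phosphatase and so sustains contraction. It read 3.86, 3.63, 3.11, 4.09 and 3.63 in sham and 3.09, 3.67, 2.56, 2.51 and 3.13 in PPE, with 3 PPE arrays below the lowest sham array and PPE 2 and PPE 5 among the sham values (difference -0.67, interval -1.19 to -0.14, adjusted p = 0.049, and 0.0092 with slide as a random block). Ppp1r12b is a muscle form of the targeting subunit of that phosphatase. It read -0.20, -0.13, -0.17, 0.04 and 0.22 in sham and -0.70, -0.64, -0.37, -0.29 and 0.05 in PPE, so that 4 PPE arrays lay below all sham arrays, by a small margin (difference -0.34, interval -0.68 to -0.01, adjusted p = 0.109). Pln encodes phospholamban, which restrains the calcium pump of the sarcoplasmic reticulum. Its values of 1.44, 0.84, 0.46, 0.66 and 0.54 in sham and 1.14, 1.26, 0.62, 0.23 and -0.17 in PPE overlapped over most of their range (difference -0.17, interval -0.79 to 0.45, adjusted p = 0.692). Without PPE 5 its difference was 0.03. Des, desmin, had a difference of -1.03 (interval -1.77 to -0.29, adjusted p = 0.034), and reached an adjusted p of 0.0085 with the deposited log ratios.

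The broadly expressed actin-linked genes were also lower in most cases. Of 16, 12 (75%) were called lower and 1 (6.25%), Tpm4, higher, against 9.96% and 13.9% of all names tested. Over the 16 genes the median difference was -1.36. The mean of their log2 ratios was 1.77 ± 0.25 (SD, n = 5) in sham and 0.62 ± 0.15 (SD, n = 5) in PPE, with sham arrays from 1.49 to 2.004 and PPE arrays from 0.52 to 0.87. The muscle-restricted mean minus the broadly expressed mean of each array ran from 1.46 to 1.89 in sham and from 0.88 to 1.67 in PPE, so the groups overlapped through PPE 2. It was 0.54 smaller in PPE, as a mean over arrays. With the 10 genes that fit either class left out, the class medians were -1.67 and -1.25.

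Flna encodes filamin A, which crosslinks actin filaments. It read 3.84, 3.94, 3.23, 3.68 and 3.08 in sham and 1.09, 1.68, 1.11, 1.11 and 1.19 in PPE, with no overlap and a difference of -2.32 ± 0.19 (SE; adjusted p = 4.4e-06). Csrp2, a LIM protein of vascular smooth muscle and other mesenchymal cells, read 4.16, 4.30, 4.18, 4.22 and 4.29 in sham, a narrow range, and 1.92, 2.27, 2.17, 1.53 and 2.38 in PPE. Its difference was -2.17 ± 0.15 (SE; adjusted p = 1.6e-06). Ppp1r12a, the common targeting subunit of myosin phosphatase (MYPT1), read 3.09, 3.26, 2.39, 3.34 and 2.66 in sham and 0.48, 1.26, 0.80, 0.49 and 1.25 in PPE. The groups did not overlap, and the difference was -2.09 ± 0.23 (SE; adjusted p = 3.2e-05). A second, dimmer Ppp1r12a probe was also called lower, at -1.02.

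At the other end of the class, 1 gene rose and 3 did not pass. Tpm4, a tropomyosin of non-muscle cells, read -0.03, -0.12, -0.32, -0.45 and -0.08 in sham and 0.70, 0.76, 0.88, 0.86 and 0.39 in PPE. Every PPE array lay above every sham array (difference 0.92 ± 0.13 (SE), a 1.89-fold rise, adjusted p = 0.0002). Cnn2, the calponin of non-muscle cells, read 0.17, 0.71, 0.26, 0.57 and 0.05 in sham and 0.41, 0.77, 0.98, 0.66 and 0.87 in PPE, with an overlap between 0.41 and 0.71 (difference 0.39, interval 0.05 to 0.73, adjusted p = 0.072). Palld, palladin of stress fibres, read 1.18, 1.14, 0.42, 0.84 and 0.24 in sham and 0.48, 0.74, 0.60, 0.19 and 0.56 in PPE, and these values overlapped (difference -0.25, interval -0.67 to 0.18, adjusted p = 0.367). Cnn3 narrowly missed the threshold, at -0.53 (adjusted p = 0.012), and passed it without sham 5 (adjusted p = 0.0063) or without PPE 3 (0.0072), and with slide as a fixed block (0.0086) or a random block (0.0023).

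Between these ends lay 9 genes called lower. Myh10, non-muscle myosin IIB, had a difference of -1.76, Tpm1 -1.78, caldesmon (Cald1) -1.57, the essential light chain Myl6 -1.46, and Itpr1, the IP3 receptor that releases stored calcium, -1.45. Cald1 was not called with slide as a fixed block (adjusted p = 0.024). Vinculin (Vcl) and alpha-actinin (Actn1), which join actin to adhesion sites, were at -1.28 and -1.25, Pdlim7 at -1.04, and Vim, the intermediate filament of mesenchymal cells, at -0.73. The call of Vcl was lost without sham 2 or sham 4 (adjusted p = 0.011 and 0.010). That of Vim was lost without any 1 array except sham 5 or PPE 2 (adjusted p = 0.013 to 0.021).

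**Figure D2:**
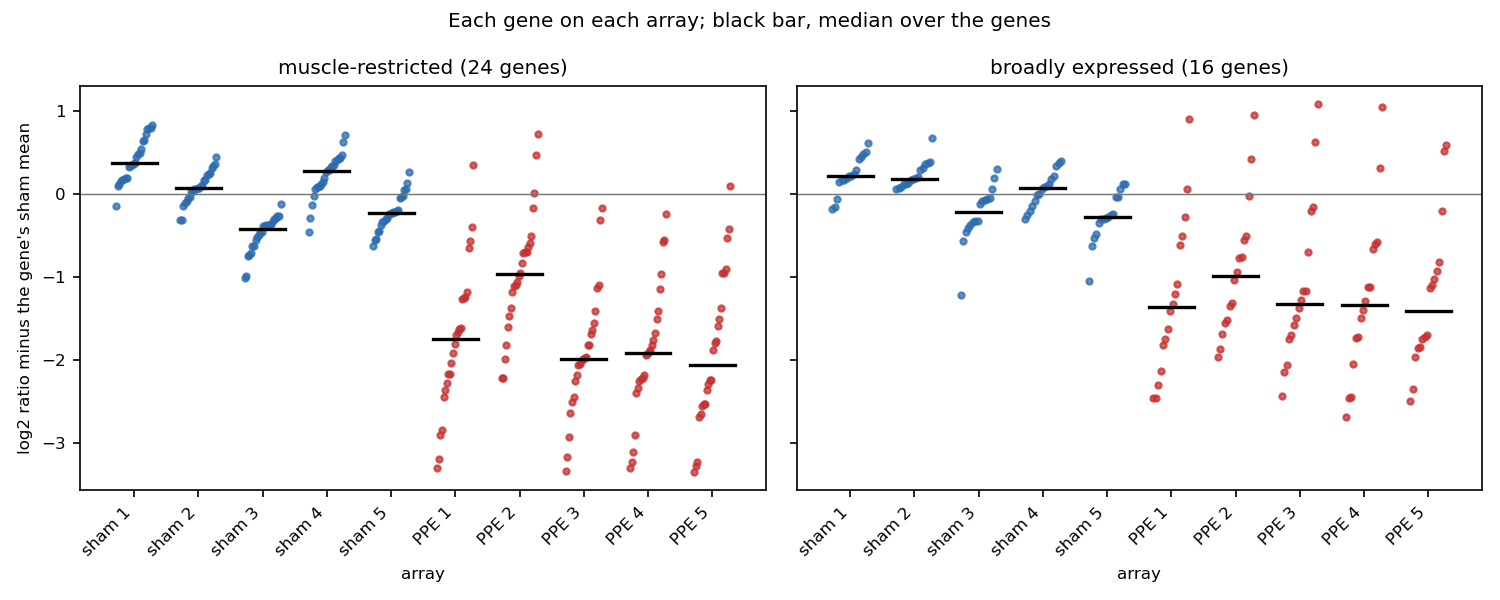
Log2 ratio of each gene minus its mean over sham (vertical axis) on each of the 10 arrays (horizontal axis), for the muscle-restricted and the broadly expressed genes, with a black bar at the median over genes. The PPE arrays lie below 0 for most genes in both classes, and PPE 2 lies above the other 4 PPE arrays among the muscle-restricted genes.

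Within the groups, the genes moved together by array. PPE 2 was the highest PPE array for 22 of 24 muscle-restricted genes and for 9 of 16 broadly expressed genes, and sham 3 was the lowest sham array for 18 and 6. Their muscle-restricted means were 2.53 on PPE 2, against 1.56 to 1.72 on the other PPE arrays, and 2.99 on sham 3, against 3.26 to 3.90. PPE 2 also had the highest mean over 12 genes of skeletal and cardiac muscle (3.62, other PPE arrays 0.94 to 2.31) and over 8 fibroblast genes (4.50, others 3.46 to 4.14). The same array was highest for the adipocyte (6.13, others 4.48 to 5.76), endothelial (3.79, others 2.67 to 3.71) and pericyte genes (3.89, others 2.71 to 3.64), while its macrophage mean of 2.54 lay inside the range of the other PPE arrays (2.16 to 3.29). Their part in the results was not tested. Without PPE 2, all 44 members kept their call or its absence.

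The 4 regulators differed in direction. Myocd, the smooth and cardiac muscle coactivator, read 4.97, 4.41, 2.05, 3.32 and 3.26 in sham and 1.18, 1.82, 0.39, 0.49 and 0.84 in PPE (probe at chr11:64991930-64991989, mm9, minus strand). The sham values were widely spread, and all 5 lay above the PPE values. The difference was -2.66 ± 0.49 (SE), or 6.31-fold (adjusted p = 0.0013), and with the deposited log ratios it was -1.76 and was not called (adjusted p = 0.027). This only Myocd probe was dim, with a mean log2 brightness of 7.30, though well above background on all 10 arrays. Mkl1, a coactivator found in most cells, read -1.09, -1.15, -1.36, -1.22 and -1.42 in sham and -0.16, -0.40, -0.38, -0.17 and -0.17 in PPE. Every PPE array was higher, with a difference of 0.99 ± 0.11 (SE; adjusted p = 3.1e-05), and its second probe was called higher too, at 0.59.

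Mkl2 read 0.74, 1.02, 0.37, 0.80 and 1.02 in sham and 0.53, 0.67, 0.55, 0.54 and 1.01 in PPE, with the PPE values inside the sham range (difference -0.13, interval -0.46 to 0.20, adjusted p = 0.548). Srf, the DNA-binding partner of all 3, read 1.19, 0.78, 0.51, 0.71 and 0.22 in sham and -0.25, -0.07, -0.10, 0.08 and -0.84 in PPE. The groups did not overlap and it was called lower (difference -0.92 ± 0.21 (SE), adjusted p = 0.0044). That call was lost without sham 1, sham 2, sham 4 or PPE 1 (adjusted p = 0.011 to 0.013), and the second, dimmer Srf probe had a difference of 0.00 (adjusted p = 0.993). The fall of Srf therefore rested on 1 probe.

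Genes of the same family were compared by asking whether their differences themselves differed, with the log2 ratio of one gene minus that of the other on each array and a two-sided exact permutation test over the 10 arrays. Of 19 pairs in 11 families, all chosen with the members' results known, 11 reached the smallest p that the 252 relabellings allow (0.0079, adjusted over the pairs 0.014). Their direction was the same with median centring in all 19 pairs. Pairs that share a gene are not independent of each other. Among tropomyosins, the difference of Tpm2 lay 3.21 ± 0.26 (SE) and that of Tpm1 2.70 ± 0.18 (SE) below that of Tpm4. Tpm1 and Tpm2 differed by 0.52 (interval 0.01 to 1.02, exact p = 0.079, adjusted 0.094). The Tpm1 values are those of its brightest probe, and its other 4 probes, at -0.65 to 0.19, were not called. Among calponins, Cnn1 lay 2.12 ± 0.31 (SE) below Cnn2 in its difference, at the smallest p, and 1.21 ± 0.29 (SE) below Cnn3 (exact p = 0.016, adjusted 0.023).

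For the coactivators, the difference of Myocd lay 3.65 ± 0.53 (SE) below that of Mkl1 and 2.52 ± 0.52 (SE) below that of Mkl2, and Mkl1 lay 1.12 ± 0.16 (SE) above Mkl2. All 3 pairs, which share their genes, were at the smallest p. The Myocd probe was far dimmer (mean log2 brightness 7.30) than those of Mkl1 (12.54) and Mkl2 (11.80). Acta2 fell by 1.35 ± 0.19 (SE) more than Actg2, and Myl9 by 1.57 ± 0.28 (SE) more than Myl6, also at the smallest p. Smtn, by its brightest probe, lay 0.86 ± 0.28 (SE) below Smtnl2, at that p too. The other Smtn probe was at -0.36, above Smtnl2 at -0.93. In the phosphatase and myosin heavy chain pairs the broadly expressed gene had the lower difference. Ppp1r12a lay 1.75 ± 0.27 (SE) below the muscle-restricted Ppp1r12b, again at the smallest p. The Ppp1r12b probe, however, was well above background on only 4 arrays of each group. The offset of 50 used in background correction draws the ratios of dim probes towards 0. The other tested probes of these genes lay closer together, at -1.02 (Ppp1r12a) and -0.63 (Ppp1r12b). Myh11 lay 1.03 ± 0.37 (SE) above Myh10 (exact p = 0.032, adjusted 0.043). Csrp1 and Csrp2 differed by -0.12 (interval -0.60 to 0.36, exact p = 0.611), and Pdlim3 and Pdlim7 by -0.63 (interval -1.47 to 0.21, exact p = 0.119). Des lay 0.77 above Synm (exact p = 0.016, adjusted 0.023), Synm 1.06 below Vim (exact p = 0.040, adjusted 0.050) and Des 0.29 below Vim (exact p = 0.413).

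**Figure D3:**
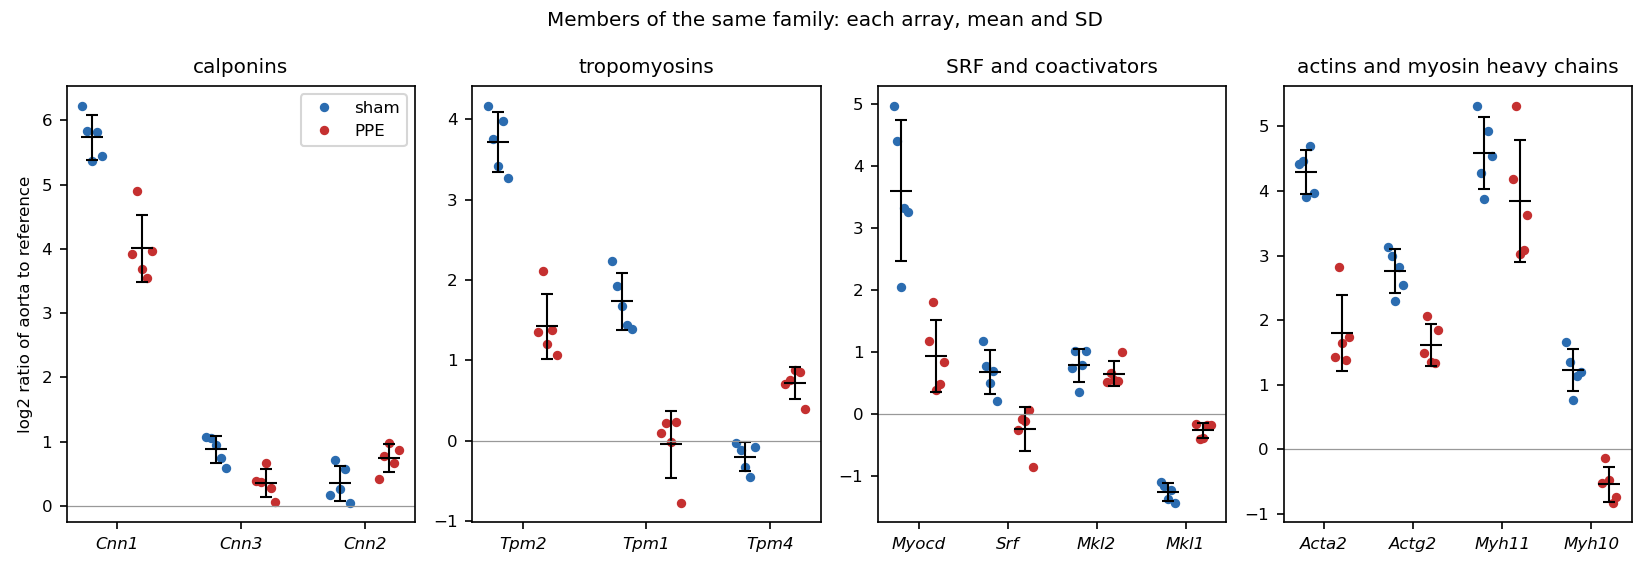
Log2 ratio of aorta to reference (vertical axis, a separate scale in each panel) for members of 4 groups of related genes, with a point for each sham (blue) and PPE (red) array and bars for the mean and SD of 5 arrays. Each gene is shown by its brightest tested probe. Cnn1, Tpm1, Tpm2, Myocd and Acta2 are lower in PPE, Tpm4 and Mkl1 are higher, and the groups overlap for Cnn2, Mkl2 and Myh11.

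Several members had probes that did not move alike. Of 70 member probes tested, 43 were called lower, 3 higher and 24 neither, where 9.15% of the 30836 probes tested were called lower. Among the 17 genes with more than 1 tested probe, all probes had the same call in 10, and in none were probes called in opposite directions. Synm had 5 probes, all with differences below 0 (-0.93 to -1.80) and 3 of them called. Smtn had a probe at -1.79 and a dimmer one at -0.36 (adjusted p = 0.155), and was at -1.08 with both averaged. Pgm5 probes were at -1.54, -0.70 and -0.34, with only the brightest called, and their mean was at -0.86. Both genes were still called with probes averaged.

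Tpm1, which makes many transcript forms by alternative exons, had 5 probes within chr9:66871166-66880333 (mm9). The brightest (A_55_P2032192) read 2.24, 1.93, 1.68, 1.44 and 1.39 in sham and 0.10, 0.22, -0.01, 0.23 and -0.77 in PPE and was called lower, at -1.78. The other 4 were not called, with differences from -0.65 to 0.19, and with all probes averaged Tpm1 was at -0.67 (adjusted p = 0.095). The pair A_55_P2187043 and A_55_P2187038, overlap by 46 bases and read almost alike. The former was 1.31, -0.49, 1.42, 3.07 and 0.63 in sham and -0.21, 2.70, -1.07, 1.18 and 0.08 in PPE, highest on sham 4 and PPE 2 and lowest on sham 2 and PPE 3 in their groups. Ckm, the creatine kinase of striated muscle, read 3.39, 0.66, 2.09, 5.08 and 1.10 in sham and 2.06, 4.53, 0.62, 3.12 and 1.72 in PPE, with the same highest and lowest arrays. Ckm was picked after seeing the values from 12 genes of skeletal and cardiac muscle. Their mean was also highest on sham 4 (4.34) and PPE 2 (3.62) and lowest on sham 2 (1.73) and PPE 3 (0.94). Not all of them followed, Myh2 being highest on PPE 1 (1.51) and Myh6 on sham 5 (3.89) and PPE 5 (1.07). PPE 2 was also highest for 22 of 24 muscle-restricted genes. The part of striated muscle in these probe signals was not tested.

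Ldb3 showed a like split. The brighter probe (A_65_P11603) was 4.40, 3.68, 3.25, 3.33 and 3.43 in sham and 1.95, 2.52, 1.63, 1.94 and 0.92 in PPE, without overlap, at -1.82. The other probe (A_51_P265348) was 1.69, 0.63, 0.67, 2.50 and 0.74 in sham and 1.11, 2.17, -0.07, 0.50 and 0.92 in PPE, again highest on sham 4 and PPE 2, with a difference of -0.32 (adjusted p = 0.638). With its probes averaged, Ldb3 was at -1.07 and was not called (adjusted p = 0.020). Without sham 4 and PPE 2, a setting chosen after seeing the data, 28 members were lower and 2 higher. Over all 22520 names, 1647 were then lower and 2285 higher.

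**Figure D4:**
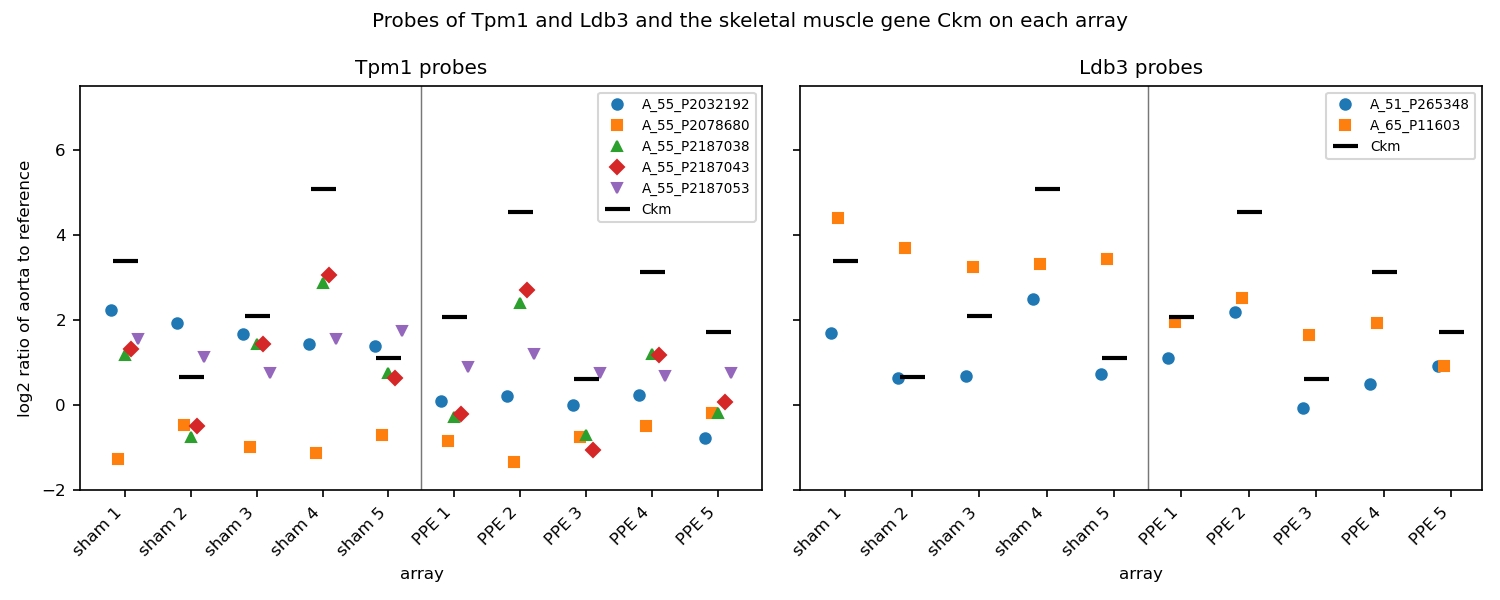
Log2 ratio (vertical axis) of each tested probe of Tpm1 (left) and Ldb3 (right) on each array (horizontal axis), with the striated muscle gene Ckm as a black bar. Ckm was picked from 12 listed genes after seeing the values. A_55_P2187038, A_55_P2187043 and A_51_P265348 are highest on sham 4 and PPE 2, where Ckm is highest in its group, and the called probes A_55_P2032192 and A_65_P11603 are lower on all PPE arrays.

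A wider list of 35 genes of actin dynamics, adhesion and contraction outside the 44 was read for comparison. Of 33 tested, 18 (54.5%) were called lower and 3 (9.09%) higher (Tpm3, Myh9 and Cfl1), with a median of -0.87. Of all names tested, 9.96% were lower and 13.9% higher, so the share called higher was below that of all names. With median centring none of the list was called, and its median was -0.10. Tns1, a tensin of focal adhesions, was at -2.71, Dstn, an actin-depolymerising protein, at -2.56, Fhl1 at -2.07 and the calcium pump Atp2a2, which Pln restrains, at -1.93. Rock1, a kinase that inhibits myosin phosphatase, was at -1.40, and Prkg1, the cGMP-dependent kinase, at -1.01. The cytoplasmic actins Actb (0.25, adjusted p = 0.306) and Actg1 (0.13, adjusted p = 0.539) were not called. In the non-muscle motor, Myh9 was at 0.87, where its relative Myh10 was at -1.76. Among the depolymerising factors, Cfl1 was at 0.48 and Cfl2 at -1.06.

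Whether markers of other cells moved with the group differed by list. All 8 macrophage genes were called higher, with a list mean from -0.34 to 0.22 in sham and from 2.16 to 3.29 in PPE, and 5 of 8 fibroblast genes were, with 2.64 to 3.15 in sham and 3.46 to 4.50 in PPE. None of 8 endothelial genes (2.47 to 3.51 in sham, 2.67 to 3.79 in PPE) and none of 6 pericyte genes (2.71 to 3.77 and 2.71 to 3.89) was called. Of 6 adipocyte genes 1, Lipe, was lower (list mean 5.34 to 6.56 and 4.48 to 6.13), and of 12 genes of skeletal and cardiac muscle 1, Myh2, was lower (1.73 to 4.34 and 0.94 to 3.62). No marker list was without signal in either group, and the part of these cells in the members' differences was not tested. Of the muscle-restricted genes, 21 of 24 had red signal well above background on all 10 arrays, as had all 20 other members. The exceptions were Pln on 7 arrays, Ppp1r12b on 8 and Lmod1 on 9. The share of all spots above background in the red channel ran from 37.6% (sham 5) to 65.8% (PPE 1), and no member spot was saturated.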

How the data were processed

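The 10 arrays (5 sham, 5 PPE) were 2-colour Agilent arrays with aortic RNA (500 ng) in red and reference RNA in green, without dye swap. Per the study's methods, arrays of poor hybridization and outliers were left out of the authors' analysis, and which ones is not stated. The authors extracted spots with Feature Extraction 10.7.3.1. Mean spot signal and median local background, as deposited, are intensity values, unlogged. The LogRatio column, also deposited, gives log10 of red divided by green and served as an alternative after conversion to log2. The authors' series matrix holds log2 ratios of unstated scale, which matched the processed signals (log2 of red divided by green) on 100% of spots at a tolerance of 0.0001.

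In R 4.3.3 with limma 3.58.1, mean signals were background-corrected by normexp (offset 50) and normalised by loess within each array, controls having weight 0. The offset draws ratios of dim probes towards 0. Spots marked as outliers (176 to 331 per array) were left out and spots of 1 probe averaged. A probe was tested if red was well above background on at least 5 arrays (on a share of at least 0.5 of its spots), and a gene name was represented by its tested probe of highest mean brightness. Groups and replicate numbers came from the labels. lmFit and eBayes were run unpaired, with Benjamini-Hochberg adjustment over 22520 names at 0.01, after the study's false discovery rate. The study's SAM test was not run here. Scripts were tested on simulated data. Values on every array are printed for the 5 most negative and 3 most positive muscle-restricted genes, the 3 at either end of the broadly expressed class, the 4 regulators, Acta2 and Myh11, and those of probes and of Ckm were added after seeing the values. The members and lists were chosen with earlier results of these data known. Slides (5) and scan days (2) were read from the file headers. Slide 1 (arrays sham 1, PPE 1, PPE 2) had a scan day of its own, arrays sham 2, PPE 3, sham 3 and PPE 4 shared slide 2, and the other arrays had a slide each. Alternatives covered background correction, normalisation, the deposited ratios, filters, probe choice, slide, scan day and replicate as blocks, and each array left out. The number of arrays limits the precision.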

Additional observations from a re-analysis of the deposited data

Results flagged for a closer look

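In 11 of 88 sets of 5 arrays (44 genes, each in sham and in PPE), 1 array stood apart from the other 4, its gap to the nearest exceeding a share of 0.71 of the range. About 5% of sets of 5 independent normal values pass this cut-off. The 88 sets share the same arrays, on which the genes moved together, so their count cannot be judged against that share. The share over all names was not computed. PPE 2 stood above the other PPE arrays for Acta2 (share 0.757, 2.82 against 1.73 for the next), Synm (0.762), Myl9 (0.871), Hspb6 (0.812) and Flna (0.828). PPE 5 stood below the others for Vim (0.752), Tpm1 (0.755) and Vcl (0.7103), and sham 5 for Vim (0.856, 0.56 against 1.28) and Vcl (0.722). Sham 3 stood below the other sham arrays for Nexn (0.807). Red signal was well above background on 37.6% of spots on sham 5 and 45.8% on PPE 5, the lowest share of each group. Without both, a setting chosen after seeing the data, 34 members were called lower and 2 higher. Over all 22520 names, 2396 were then lower and 3510 higher.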

How the results depend on the processing

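Over 23 alternatives other than median centring, between 30 and 37 members were called (35 in the report), of them 17 to 20 muscle-restricted, 10 to 14 broadly expressed and 2 or 3 regulators. The calls over all 22520 names also differed by setting, with 3122 higher and 2244 lower in the report. With slide as a random block (37 members) they were 3992 and 2943. Without sham 4 and PPE 2 (30 members) they were 2285 and 1647. Leaving the 10 genes that fit either class, 5 in each, out of the count left 14 and 9. The class medians ran from -1.97 to -1.60 and from -1.47 to -1.24. Leaving out each array in turn gave 30 to 35 members, and 14 to 21 of the wider list (21 in the report). Of the 35 called members 25 were called under all 23, and of the 9 not called 5 were called under none (3 members had no value under the filter on all 10 arrays). With median centring 0 members, 0 muscle-restricted, 0 broadly expressed, 0 regulators and 0 of the wider list were called, and the medians were -0.93, -0.55 and, for the wider list, -0.10. The differences that turned there were Myh11 (0.26), Ppp1r14a (0.21), Cnn3 (0.26), Vim (0.23), Palld (0.43) and Mkl2 (0.53). With single arrays left out, that of Pln ran from -0.33 (without PPE 2) to 0.025 (without PPE 5). The cause was not tested. The Aquantile step leaves log ratios as they are by construction. Vim (adjusted p = 0.021) was not called with the deposited log ratios. Vim (0.010) and Smtnl2 (0.012) were not called with no filter on dim probes, Cnn3 (0.0099) was called with no background correction, and Ppp1r12b (0.0097) with probes averaged.

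The arrays were treated as unpaired. The correlation of deviations of same-numbered arrays was 0.29, -0.30, 0.16, -0.14 and 0.52. Arrays of different numbers were not compared in this way, and the arrays numbered 1 and those numbered 3 also shared a slide. These values therefore cannot show whether the numbers pair the arrays. With the replicate block, 36 members were called, Des (adjusted p = 0.0018) and Cnn3 (0.0071) being added and Smtnl2 (0.011) lost. Over all 22520 names, 3024 were higher and 2281 lower with that block.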
